A study of Mus musculus with 37 samples.

Results

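Astrocytes of the contralateral cortex, the side opposite to the impact, were compared between mice that had a controlled cortical impact (CCI) injury without post-traumatic epilepsy (PTE-) and sham mice. The comparison holds 14 of the 37 libraries of the series, 9 contra PTE- and 5 contra SHAM, each from 1 mouse, chosen by their treatment labels with the 4 contralateral libraries of epileptic mice (PTE+) left out. Per the methods, the mice were CD1 males, while the labels read WT CD31 Injured for PTE- and WT CD31 Sham for sham mice, and no transgene was named in either group. PTE- mice had a severe CCI over the right parietal cortex and showed no seizures in later EEG recording. Sham mice had the craniectomy and the electrodes but no impact, so the electrodes were shared by both groups. Cortical cells were taken 4 months after injury with magnetic beads that bind ACSA-2, an antigen on the astrocyte surface, and their RNA was sequenced. The question addressed here was which astrocyte genes differed in the hemisphere away from the impact when injury was not followed by epilepsy.

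Astrocytes clear glutamate and potassium, supply neurons with substrates, line blood vessels with their endfeet and respond to injury by reactive gliosis, in which intermediate filament, complement and secreted genes rise. After a focal impact this response is best known beside the lesion. The opposite cortex is linked to the injured one by callosal fibres and shares with it cerebrospinal fluid and blood supply, and it has no cavity of its own.

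The deposited values are TPM, transcript abundances corrected for length with an equal sum in each library. They keep no sequencing depth, so the depth behind each value is unknown and no counting interval is given. Genes above 0 TPM numbered 15815 to 18534 in PTE- and 15929 to 17523 in sham libraries. Astrocyte markers were abundant in every library. The summed level of 15 astrocyte markers was 21300 to 28500 TPM in PTE- and 22500 to 25600 TPM in sham libraries, with none of them at 0, and the glycolytic enzyme gene Aldoc alone had a median of 10200 TPM over the 14 libraries. Markers of other cells were detected too. Microglia and macrophage markers summed to 187 to 416 TPM in PTE- and 156 to 755 TPM in sham libraries, and meningeal and fibroblast markers to 2090 to 12500 and 1670 to 6510 TPM. Most of the last sum came from Ptgds (887 to 11000 TPM in PTE- and 692 to 5300 TPM in sham libraries) and Igfbp2, which other cells of the brain also express. Fewer cells of a type and less RNA per cell cannot be told apart in such bulk samples. What the leading 8 or 9 of a mouse name stands for is not stated. This prefix was treated as a possible batch, with 4 PTE- and 2 sham mice of prefix 8 and 5 and 3 of prefix 9.

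Differences were tested with limma on log2(TPM + 1) over the 10564 genes whose mean exceeded 5 TPM in 1 or both groups. Genes were called differentially expressed (DEGs) where the unadjusted p fell below 0.05 and the levels differed 1.2-fold or more. These thresholds follow the study's methods. By this rule 397 genes (3.76% of those tested) were DEGs, 51 higher (0.483%) and 346 lower (3.28%) in PTE- mice. Without the fold threshold 414 genes (3.92%) had an unadjusted p under 0.05, no more than the share of 0.05 that is due on average when no gene differs. After Benjamini-Hochberg adjustment in limma 0 genes passed (smallest adjusted p = 0.961). A DEG below is thus a gene called at an unadjusted p, and no gene named here passed the correction for the number of genes. Of the lower DEGs, 50 had a mean above 5 TPM in sham mice only, and 4 of the higher DEGs in PTE- mice only. Such a gene entered the test through the group where it was high, so the direction of its means follows from the filter, and this is stated beside those named.

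The excess of lower genes depended on how the libraries were scaled. Over all tested genes the log2 fold change had a median of -0.09 in the values as deposited, 0.03 after each library was centred on its median and 0.006 after quantile normalization. Median centring gave 328 DEGs higher and 119 lower, so that 73.4% were higher where 87.2% had been lower, and quantile normalization gave 217 higher and 127 lower. All 51 higher DEGs were also called higher after median centring, while 119 of the 346 lower DEGs were also called lower. The counts rested on single sham mice as well. Without sham mouse 8_16 there were 861 DEGs and without sham mouse 9_9 there were 781, against 254 without sham mouse 9_10, 224 without sham mouse 9_11 and 263 without PTE- mouse 8_9. With the name prefix added as a covariate 445 genes were DEGs.

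**Figure D1:**
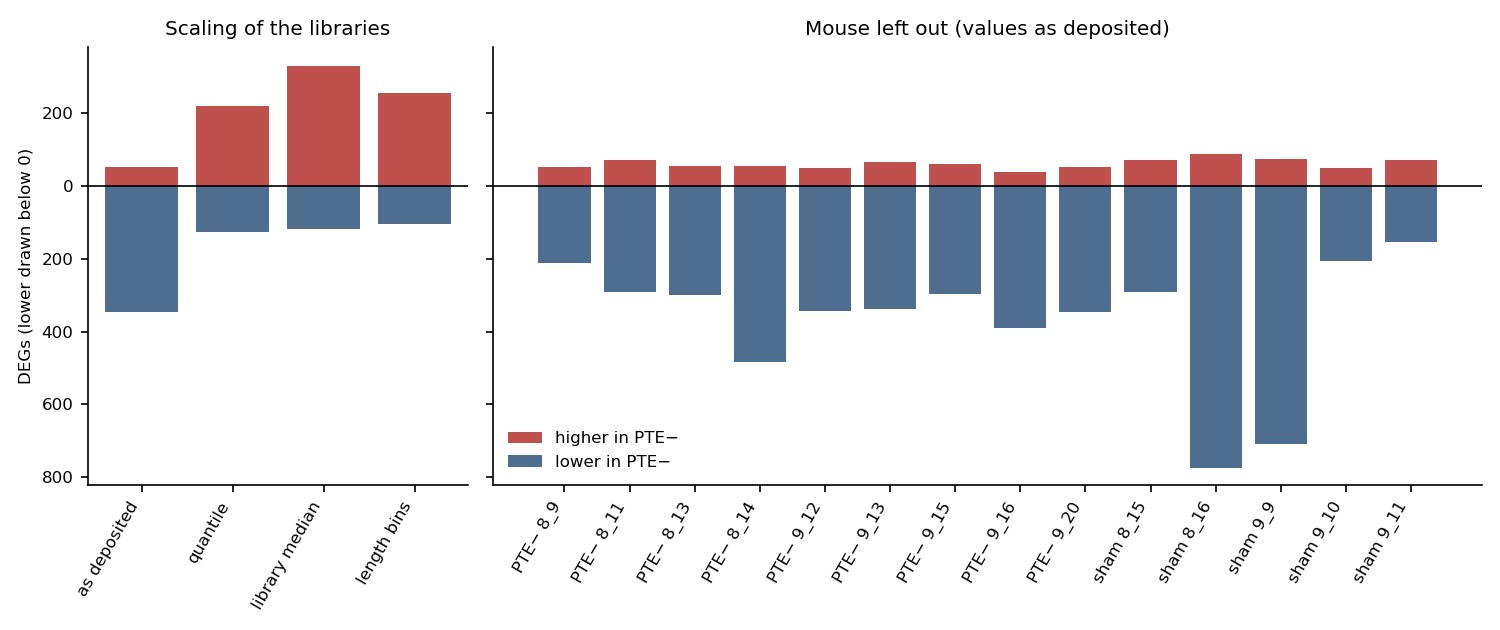
Number of DEGs in contralateral PTE- against sham mice (y axis), those higher drawn above 0 in red and those lower drawn below 0 in blue. The left panel shows 4 scalings of the libraries and the right panel the deposited values without each mouse in turn, where lower DEGs number 154 at the least (sham mouse 9_11 left out) and 774 at the most (sham mouse 8_16 left out).

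Long transcripts made up much of the lower list. With genes divided into 5 equal bins of exonic length, the median log2 fold change was 0.004 in the shortest genes (69 to 2427 bases), -0.034, -0.09 and -0.131 in the next bins, and -0.202 in the longest (7430 to 41324 bases). DEGs that were lower numbered 20 in the shortest and 160 in the longest bin, and those higher 19 and 2. The median exonic length was 6897 bases over the 344 lower DEGs with an annotated length, 2681 bases over the 50 higher ones and 4333 bases over all tested genes. The level of the longest relative to the shortest bin within a library, on the log2 scale, was -2.03 to -1.31 in PTE- libraries (median -1.53) and -1.84 to -0.983 in sham libraries (median -1.31), so the groups overlapped, and sham mice 9_10 and 9_11 lay above every PTE- mouse. Centring each library within 10 bins of exonic length, an alternative chosen after seeing the data, gave 254 DEGs higher and 106 lower. Level moved with the difference as well, since over 5 equal bins of mean TPM the median log2 fold change went from -0.203 in the lowest to 0.022 in the highest bin, and lower DEGs from 108 to 17. The part of length, level and library in the lower calls was not tested.

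**Figure D2:**
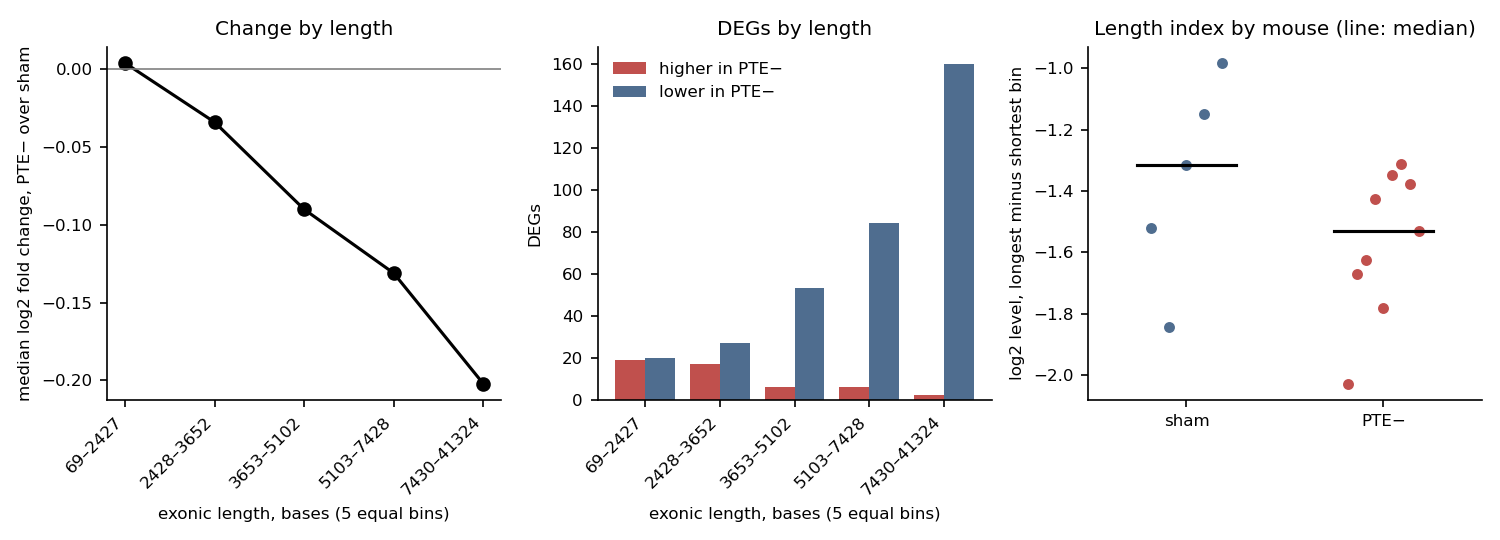
Left, median log2 fold change of PTE- over sham in 5 bins of exonic length (bases). Middle, DEGs per bin, with lower DEGs rising from 20 to 160. Right, the log2 level of the longest minus that of the shortest bin in each library, with the group median as a line, in which sham mice 9_10 and 9_11 lie above all PTE- mice.

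A core of the list was stable to both choices. Such checks reuse the same 14 libraries, so they cannot show that the calls exceed chance. Of the 397 DEGs, 108 had the same sign and were called under all 4 scalings (45 higher and 63 lower), 86 were called without each of the 14 mice in turn, and 53 met both conditions (9 higher and 44 lower), with the set of tested genes held fixed. When the filter on TPM was applied again without each mouse, 81 of the 86 and 50 of the 53 remained (9 higher and 41 lower), and Slc4a10, Slc26a2 and Med14 dropped out. The 9 higher genes, given in full whether or not the rule for named genes held them, were Ceacam1, Nupr1, Nudt19, Anxa5, B9d2, Mtfp1, Nfkbib, Blvrb and Mtch2. Among the 41 lower genes were Ccn3, Penk, Hif3a and Igfbp6. The accounts below begin with these.

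Among DEGs with a gene symbol, Ceacam1 had the largest increase. It encodes a cell adhesion molecule of the immunoglobulin superfamily and lies on chromosome 7 at 25461707 to 25477603 (GRCm38, minus strand). Its level was 7.01 to 17.6 TPM in PTE- mice (median 13.3). In sham mice 8_15, 8_16, 9_9, 9_10 and 9_11, the order kept throughout, it was 3.37, 8.33, 1.87, 13 and 2.56 TPM. Sham mouse 9_10 was as high as the middle of the PTE- mice, the other sham mice lay below at least 8 of the 9, and 6 of the 9 PTE- mice were above every sham mouse. The log2 fold change was 1.27 ± 0.33 (SE, n = 9 and 5), a 2.42-fold increase (limma, unadjusted p = 0.00117, two-sided exact permutation p = 0.00549), and stayed between 1.03 and 1.60 without any 1 mouse. Within prefix 8 it was 1.33 and within prefix 9 it was 1.21. Reads of Ceacam1 can be shared with its close relative Ceacam2, which was at 0 to 1.69 TPM in PTE- and 0.62 to 2.28 TPM in sham mice.

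Nupr1 encodes a small nuclear protein that is induced by cell stress and acts on transcription. It reached 95.1 to 277 TPM in PTE- mice (median 135), against 59.8, 110, 78.7, 73.3 and 106 TPM in the sham mice. All 9 PTE- mice were above the sham median and 7 above the highest sham mouse. The log2 fold change was 0.73 ± 0.21 (SE, limma, unadjusted p = 0.00295, exact permutation p = 0.00599), and it was 0.66 within prefix 8 and 0.80 within prefix 9.

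The promoters of Ceacam1 and Nupr1, the stable DEGs with the largest increase, are shown because they share an E-box, the palindrome CACGTG bound by basic helix-loop-helix factors, beside that of Hif3a, a transcription factor gene that was lower. Each sequence holds the 250 bases upstream of the RefSeq start (build GRCm38.p6, minus strand, written 5′ to 3′), with CACGTG in capitals.
Ceacam1, chr7:25477626-25477875: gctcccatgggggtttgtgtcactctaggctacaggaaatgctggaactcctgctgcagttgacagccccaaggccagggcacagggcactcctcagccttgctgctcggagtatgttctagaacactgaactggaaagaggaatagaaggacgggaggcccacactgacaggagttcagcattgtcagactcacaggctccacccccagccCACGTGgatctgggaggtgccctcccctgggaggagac
Nupr1, chr7:126625471-126625720: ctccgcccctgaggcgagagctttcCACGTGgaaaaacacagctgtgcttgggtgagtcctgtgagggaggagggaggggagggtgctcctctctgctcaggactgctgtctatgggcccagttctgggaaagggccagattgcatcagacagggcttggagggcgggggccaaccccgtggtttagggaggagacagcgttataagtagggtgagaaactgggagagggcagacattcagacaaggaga
Hif3a, chr7:17062428-17062677: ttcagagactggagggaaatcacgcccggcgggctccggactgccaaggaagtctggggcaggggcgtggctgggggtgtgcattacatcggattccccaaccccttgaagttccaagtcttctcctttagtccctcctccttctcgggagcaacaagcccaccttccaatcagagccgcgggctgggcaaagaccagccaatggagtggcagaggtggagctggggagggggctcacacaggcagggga
The E-box began 38 bases upstream of the start in Ceacam1 and 225 bases upstream in Nupr1, and these letters were not in the Hif3a window. The E-box holds the hypoxia response core ACGTG on both strands. Of 32817 promoter windows of this length, 6.02% held CACGTG and 16.6% held ACGTG on either strand. The letters TGACG and TGANTCA were searched too, and neither was in the windows shown. CACGTG was also absent from the windows of Igfbp6 and Slc4a10, genes that were lower. The E-box was looked at after the genes were known, and a match is a description of the sequence only.

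Further DEGs were higher by smaller factors. Nudt19, a coenzyme A hydrolase gene, was at 70.9 to 162 TPM in PTE- mice (median 116) and at 52.9, 59.4, 73.5, 104 and 79.2 TPM in sham mice, with 5 PTE- mice above every sham mouse (log2 fold change 0.60 ± 0.21, limma unadjusted p = 0.0111, exact permutation p = 0.028). Among 18 tested genes of haem and iron handling 2 were called higher, against 0.483% of all tested genes, and the median of the list was 0.02. Both act in haem breakdown, but Hmox2 (0.04) and Blvra (-0.14), which do so too, were not DEGs. Blvrb, biliverdin reductase B, was at 60.3 to 77.7 TPM (median 69.0) against 51.7, 63.5, 49.0, 50.9 and 63.0 TPM (log2 fold change 0.32 ± 0.10, unadjusted p = 0.00624, exact permutation p = 0.003). Hmox1, haem oxygenase 1, was at 21.8 to 33.4 TPM (median 24.9) against 16.4, 17.6, 23.2, 21.1 and 23.5 TPM (0.35 ± 0.14, unadjusted p = 0.0193, exact permutation p = 0.012). In both genes 7 of 9 PTE- mice exceeded all sham mice, and the call of Hmox1 was lost without sham mouse 8_15 or 8_16. Markers of erythrocytes, cells rich in haem, summed to 1160 to 7730 TPM in PTE- and 570 to 4930 TPM in sham libraries, none of the 4 tested was a DEG, and their part in these values was not tested.

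**Figure D3:**
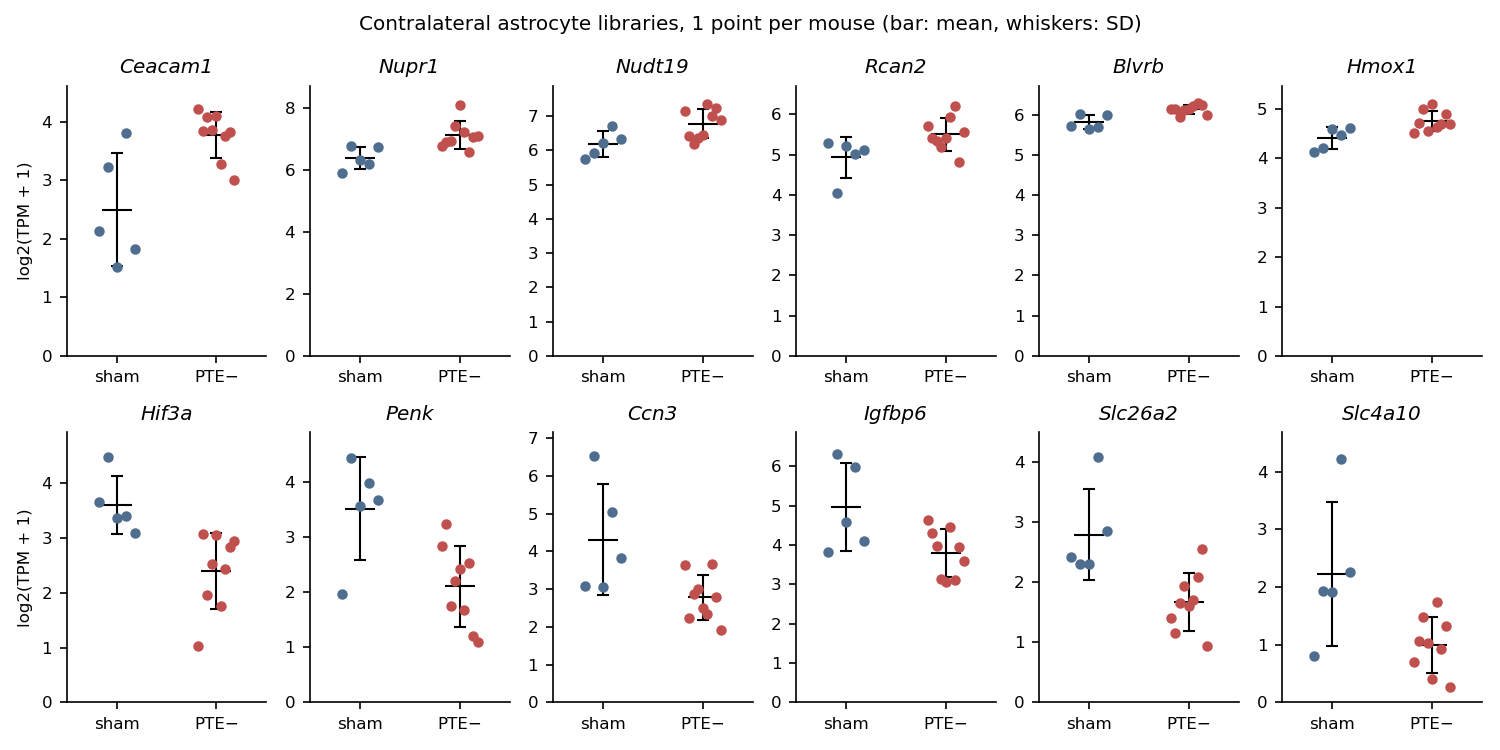
Levels as log2(TPM + 1) of 12 genes in the 5 sham (blue) and 9 PTE- (red) contralateral libraries, 1 point per mouse, with the mean as a bar and the SD as whiskers. Hif3a is the 1 gene shown whose groups do not overlap, and in Ccn3, Igfbp6 and Slc4a10 single sham mice stand far above the others.

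Several others of the 12 DEGs with the largest increase depended on single mice. Sham mouse 8_16 was the lowest sham mouse in 21.6% of the 51 higher DEGs and in 39.6% of all tested genes. Rcan2, a calcineurin inhibitor gene, was at 27.3 to 73.5 TPM in PTE- mice (median 42.0), against 38.3, 15.6, 36.3, 31.2 and 33.9 TPM in sham mice, and its log2 fold change of 0.57 was 0.35, and no longer called, without sham mouse 8_16. The Golgi GDP-fucose transporter gene Slc35c1 (0.56), the long pentraxin gene Ptx3 (0.52), Fancl (0.52), a ubiquitin ligase of the Fanconi anaemia pathway, and Rinl (0.54) also lost their calls without sham mouse 8_16, where Slc35c1 was at 0.31 and Ptx3 at 0.25. Of the 14 fits that left out 1 mouse, Slc35c1 and Ptx3 were called in 10, Fancl in 9 and Rinl in 13. Cars2, the mitochondrial cysteinyl-tRNA synthetase gene, had a log2 fold change of 0.63 ± 0.23, 6 of 9 PTE- mice above all sham mice, and lost its call without sham mouse 9_10 (0.45). Tubd1 (delta tubulin, 0.55) and the germ cell RNA-binding protein gene Rbm46 (0.61) were called in 12 and 8 of these fits. Rinl and Rbm46 passed the filter through PTE- mice only. An identifier without a symbol in the annotation used, ENSMUSG00000094661, had a log2 fold change of 1.55 with 0 to 14.1 TPM in PTE- mice (median 4.89) and 0, 3.59, 2.92, 0 and 0 TPM in sham mice, and lost its call without any 1 of the sham mice listed at 0. It passed the filter through PTE- mice only.

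The 53 tested nuclear genes of the respiratory chain held 0 DEGs, with a median log2 fold change of 0.10, and 3, 0 and 2 of them were called higher after median centring, quantile normalization and length-bin centring. The member with the largest difference, Cyc1 of complex III, was at 511 to 673 TPM in PTE- mice, with 8 of 9 above all sham mice, and 549, 555, 535, 430 and 516 TPM in sham mice (log2 fold change 0.24 ± 0.09, limma unadjusted p = 0.02, below the fold threshold). The 13 genes of the mitochondrial genome held 0 DEGs, with a median of -0.09.

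Of the 6 genes whose groups did not overlap, Hif3a had the largest difference. It encodes a member of the hypoxia-inducible factor family, of which some isoforms restrain the activity of the others, and lies at 17031507 to 17062427 of chromosome 7. Its level was 1.03 to 7.36 TPM in PTE- mice (median 4.79) and 11.6, 21.2, 9.34, 9.51 and 7.50 TPM in sham mice. Every PTE- mouse was below every sham mouse, by a small margin between the highest PTE- and the lowest sham mouse. The gene passed the filter through sham mice only (mean 11.8 TPM, against 4.77 TPM in PTE- mice). The direction of its means follows from this filter, and its p-values are a description only. The log2 fold change was -1.20 ± 0.33 (SE, limma, unadjusted p = 0.00218, exact permutation p = 0.0045), -1.92 within prefix 8 and -0.68 within prefix 9. The 6 genes were 0.0568% of all 10564 tested. Groups that do not overlap tend to give a small p, so that all 6 were DEGs adds no support. Of the 2002 ways to divide 14 libraries into 9 and 5, 1 in each direction sets the groups of a gene apart. The 6 genes are thus no more than the share due on average under shuffled labels. The genes other than Hif3a, of which Anp32e also met the rule for named genes and the rest were chosen after their values were seen, were Med14 (-0.64), a subunit of the Mediator complex, Chd1l (-0.45), a chromatin remodeller, Inpp5f (-0.38), a phosphoinositide phosphatase, Anp32e (-0.38), a chaperone that removes the histone variant H2A.Z, and B9d2 (0.38), a protein of the ciliary transition zone. Of these Anp32e was at 35.9 to 53.5 TPM in PTE- mice and 60.5, 59.5, 55.3, 72.0 and 57.1 TPM in sham mice (exact permutation p = 0.0015). Chd1l and Inpp5f were not called under all 4 scalings. Med14 passed the filter through sham mice only (mean 5.18 TPM, against 2.99 TPM in PTE- mice) and fell below it without sham mouse 9_11.

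Penk encodes proenkephalin, the precursor of the enkephalin peptides. It was at 1.13 to 8.45 TPM in PTE- mice (median 3.61), against 2.90, 20.6, 10.8, 14.8 and 11.7 TPM in sham mice. All PTE- mice lay below 4 of the 5 sham mice, and sham mouse 8_15 lay among the PTE- mice. Penk too passed the filter through sham mice only (mean 12.1 TPM, against 3.81 TPM), so its p-values are likewise a description only. The log2 fold change was -1.41 ± 0.40 (limma, unadjusted p = 0.0027, exact permutation p = 0.011), with -0.69 within prefix 8 and -1.95 within prefix 9.

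Ccn3 and Igfbp6 encode secreted proteins, a matricellular protein and a binding protein of insulin-like growth factors. Ccn3 was at 2.81 to 11.8 TPM in PTE- mice (median 5.90) and at 7.48, 90.4, 7.33, 32.2 and 13.2 TPM in sham mice (log2 fold change -1.53 ± 0.48, unadjusted p = 0.00532, exact permutation p = 0.00949). Igfbp6 was at 7.31 to 23.9 TPM (median 14.6) against 13.3, 78.5, 23, 61.9 and 16.1 TPM (-1.16 ± 0.40, unadjusted p = 0.00964, exact permutation p = 0.0265). In both genes sham mice 8_16 and 9_10 were far above the rest and the remaining sham mice lay within or near the PTE- range. Ccn3 was at -0.97 without sham mouse 8_16 and kept its call.

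Other large decreases were in genes that passed the filter through sham mice only, and of these Slc26a2, Slc4a10, Slc47a1, Atp2b4, Prg4, S100a9 and Col6a1 fell below it without 1 sham mouse, so their values are a description and no p is given for this comparison. Slc26a2, a sulfate transporter, was at 0.92 to 4.88 TPM (median 2.13) in PTE- mice and 4.32, 3.95, 3.94, 15.9 and 6.20 TPM in sham mice, with 8 of 9 PTE- mice below all sham mice (log2 fold change -1.12 ± 0.32). Slc4a10, a sodium-coupled bicarbonate transporter, was at 0.21 to 2.35 TPM (median 1.05) against 0.75, 2.81, 2.75, 17.6 and 3.80 TPM (-1.23 ± 0.43). Its value was -0.73 without sham mouse 9_10, -0.30 within prefix 8 and -1.86 within prefix 9, and without that mouse the sham means of Slc26a2, Slc4a10 and Slc47a1 were below 5 TPM. Slc47a1, an extruder of organic cations, had the most negative log2 fold change of all DEGs, -1.83 ± 0.65, from means of 13.9 TPM in sham and 1.16 TPM in PTE- mice. It was at 0 to 3.42 TPM in PTE- mice (median 0.50) and at 1.5, 14.6, 1.55, 50.4 and 1.54 TPM in sham mice, and without sham mouse 9_10 it was at -1.09 and no longer called. Atp2b4, a calcium pump of the plasma membrane, was at 1.14 to 4.33 TPM (median 1.80) against 5.50, 6.16, 4.98, 2.34 and 11 TPM (-1.08 ± 0.32), was not called after quantile normalization, and fell below the filter without sham mouse 9_11.

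Sham mouse 8_16 or 9_10 was the highest of the 5 sham mice in 10 of the 12 DEGs with the largest decrease, against 31.7% of all tested genes and 35.5% of all 346 lower DEGs, in 42.5% of which sham mouse 9_11 was the highest. Prg4, lubricin, was at 0.03 to 2.29 TPM in PTE- mice and 0.70, 14.3, 0.37, 8.03 and 2.01 TPM in sham mice (-1.24, sham mean 5.08 TPM), and its call was lost without sham mouse 8_16, without sham mouse 9_10 and under each scaling other than the deposited one. S100a9, a subunit of calprotectin abundant in neutrophils, was at 0 to 2.70 TPM against 2.56, 17.2, 2.14, 4.93 and 0.39 TPM (-1.34, sham mean 5.44 TPM), and was at -0.83 and not called without sham mouse 8_16. Col6a1, a collagen VI chain (-1.01), was at -0.49 and not called without sham mouse 9_10, and was called in 4 of the 14 fits that left out 1 mouse. The same pair of mice was high in 2 genes that were not DEGs. Lcn2, the reactive astrocyte gene of lipocalin 2, was at 0 to 1.69 TPM in PTE- mice and at 0.81, 78.6, 0, 21.7 and 0.06 TPM in sham mice (log2 fold change -1.55 ± 0.83, limma unadjusted p = 0.0787). Timp1, an inhibitor of metalloproteinases, was at 1.12 to 3.74 TPM against 2.63, 37.4, 0.48, 10.2 and 1.13 TPM (-0.82 ± 0.57, limma unadjusted p = 0.167). Cdr1 was a lower DEG (-1.01, exact permutation p = 0.0644), but its locus gives an antisense circular RNA, and the library kit is not stated to keep strand, so the transcripts cannot be told apart.

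Of the 10 genes with the smallest p, Ceacam1 and Nupr1 were higher and 8 were lower. Besides Hif3a, Penk and Slc26a2 the lower ones were Dync1li2, Lman1, Ccdc159, Snapc1 and Slk. Dync1li2, a light intermediate chain of cytoplasmic dynein, had the smallest p of all. It was at 24.4 to 35.1 TPM in PTE- mice (median 28.2) and 34.6, 47.8, 40.7, 38.9 and 41.1 TPM in sham mice, with 8 of 9 PTE- mice below all sham mice (log2 fold change -0.51 ± 0.12, limma unadjusted p = 0.000577, exact permutation p = 0.000999, where 0.0005 is the smallest the 2002 assignments of the libraries can give). Snapc1, a subunit of the complex that starts transcription of small nuclear RNA genes, was at 4.42 to 11 TPM against 17.9, 8.87, 10.2, 11.8 and 15 TPM (-0.72 ± 0.20, unadjusted p = 0.00261). Lman1, a cargo receptor between the endoplasmic reticulum and the Golgi, lost its call when libraries were centred within bins of exonic length, and Slk (-0.61), a kinase, and Ccdc159 (-0.52) kept theirs. Of the 46 DEGs named by the rule, 8 had an exact permutation p above 0.05, namely Cdr1, Col6a1, Fn1, Igfbp2, Per2, Prpf38b, Sgk1 and Srsf5.

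Lists of genes were described by counts and medians, beside 51 higher and 346 lower of all 10564 genes and their median of -0.09. Of 10 lists of cell type markers, 8 held 0 DEGs. None of the 15 astrocyte markers was a DEG (median log2 fold change -0.06), and the largest difference, Atp1b2, a subunit of the sodium pump, was -0.29 ± 0.31. Gfap was at 117 to 560 TPM in PTE- mice (median 288) and at 440, 174, 444, 389 and 204 TPM in sham mice (log2 fold change -0.13 ± 0.32). Of 11 endothelial markers, Vwf (-0.68), past the filter through sham mice only, and the drug efflux pump gene Abcb1a (-0.53) were lower, with a median of -0.28 for the list. Both were not called under the other 3 scalings or without sham mouse 9_10. The summed endothelial markers ran from 628 to 1670 TPM in PTE- and from 526 to 2260 TPM in sham libraries. Of 13 meningeal and fibroblast markers, Prg4 and Slc47a1 were lower and Igfbp2 (0.41), which astrocytes also express, was higher. Over the 14 libraries the fibroblast genes Dcn, Col1a2, Col3a1 and Col1a1 had medians of 59.2, 9.43, 4.38 and 3.56 TPM. Neuron (10 genes, median -0.47), oligodendrocyte (9, -0.26), oligodendrocyte precursor (7, -0.07), mural (10, -0.19), ependymal and choroid plexus (7, -0.04), erythrocyte (4, 0.49) and microglia and macrophage markers (11, 0.09) held 0 DEGs. Snap25, a neuronal vesicle fusion gene, was at 14 to 198 TPM in PTE- and 47.2 to 221 TPM in sham mice, and its log2 fold change of -0.55 was 0.97 within prefix 8 and -1.64 within prefix 9. The part of vascular, meningeal and neuronal cells in the values given here was not tested.

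**Figure D4:**
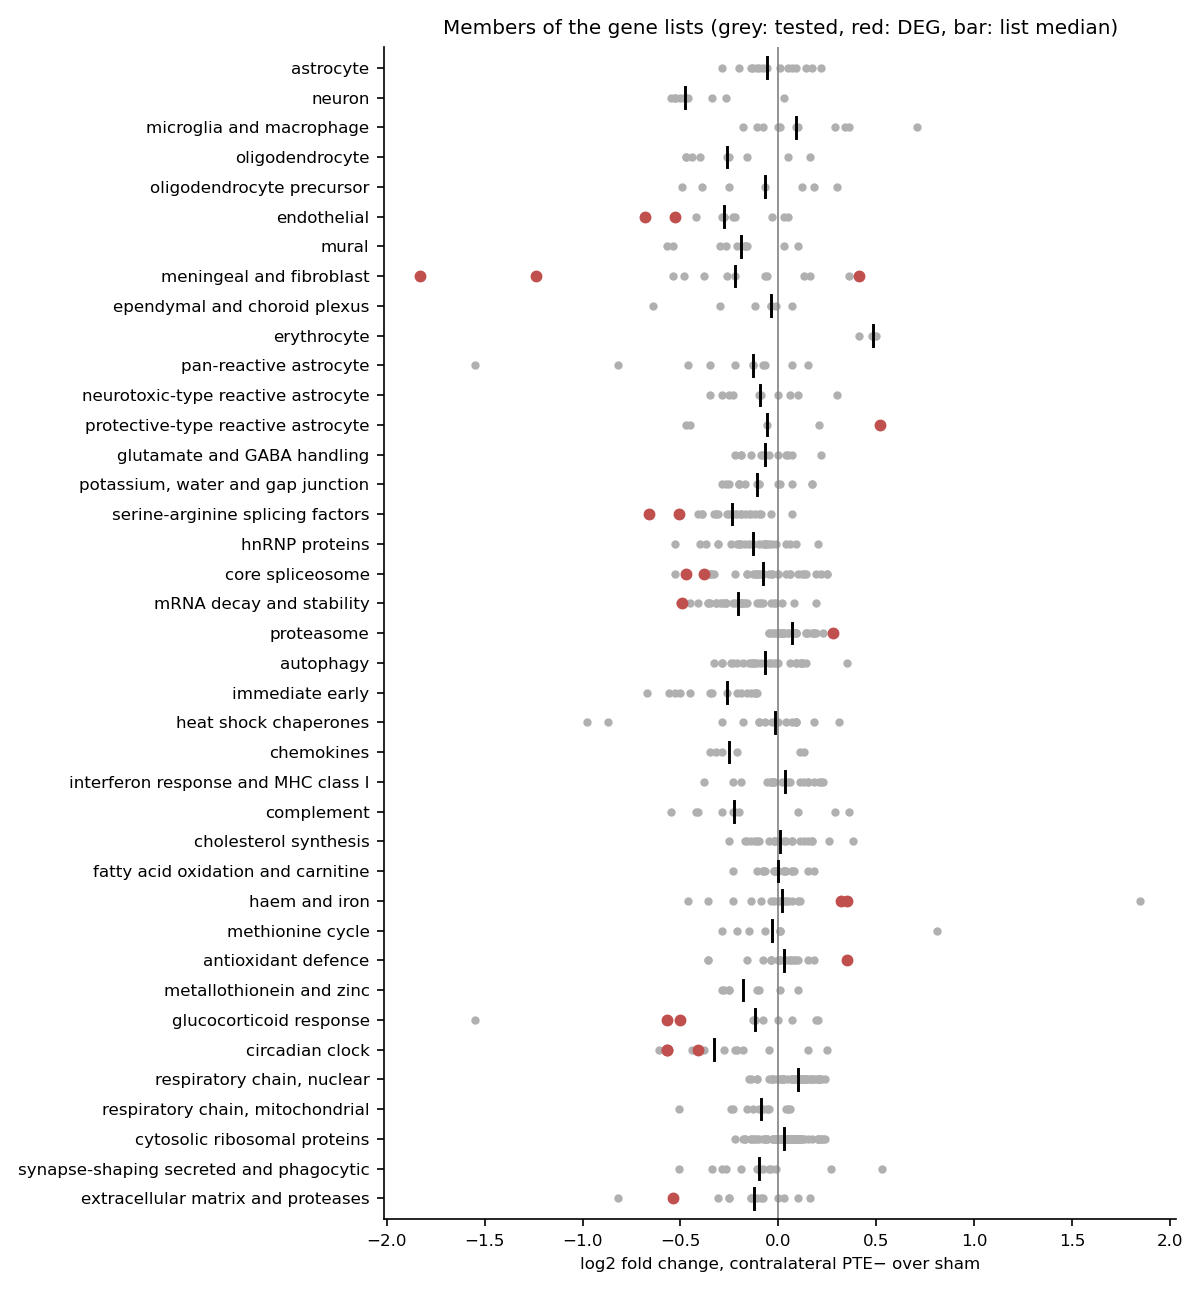
Log2 fold change of contralateral PTE- over sham mice (x axis) for each tested member of 39 gene lists, DEGs in red, other members in grey and the list median as a black bar. Astrocyte markers lie near 0 and hold no DEG, while meningeal and fibroblast markers hold Slc47a1 at -1.83 and Prg4 at -1.24.

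Genes of the reactive state were mostly not called. The 11 tested pan-reactive genes, the 10 of the neurotoxic type, the 10 complement, 6 chemokine and 20 interferon and MHC class I genes held 0 DEGs, with medians of -0.13, -0.09, -0.22, -0.25 and 0.03. Ptx3 was the 1 DEG among 5 tested genes of the protective type. The 15 immediate early genes (median -0.26) and 16 heat shock chaperones (median -0.02) held 0 DEGs, and their members with the largest differences, Nr4a1 (-0.67 ± 0.49) and Hspa1b (-0.98 ± 0.90), did not pass the test. Glutamate and GABA handling (13 genes, median -0.07), the potassium, water and gap junction genes (15, median -0.11), 74 cytosolic ribosomal proteins (median 0.03), 28 autophagy genes (-0.07), 22 cholesterol synthesis genes (0.01) and 20 of fatty acid oxidation (0.00) also held 0 DEGs, as did 15 synapse-shaping genes (-0.10), 8 of the methionine cycle (-0.03) and 8 metallothionein and zinc genes (-0.18). Among 21 antioxidant genes Hmox1 was the 1 DEG (median 0.03). A gene that missed the thresholds is not thereby shown to be equal in both groups.

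With all mice included, calls among RNA processing genes were few, and all were lower. Over all tested genes 3.28% were called lower, and 87.2% of the DEGs were lower, so the direction is that of most DEGs. Among 24 serine-arginine splicing factors, which mark exons for the spliceosome, Srsf1 (-0.66) and Srsf5 (-0.51) were lower, and the median was -0.24. Srsf1 was at 40.0 to 121 TPM in PTE- mice (median 74.0) and at 104, 111, 74.6, 109 and 186 TPM in sham mice (unadjusted p = 0.0188, exact permutation p = 0.0435), and lost its call without sham mouse 9_11. Of 37 core spliceosome genes Prpf3 (-0.38) and Prpf38b (-0.47) were lower, and of 32 genes of mRNA decay the deadenylase scaffold gene Cnot1 (-0.49), while 27 hnRNP genes held 0 DEGs. Centring within length bins left 1 lower call in the serine-arginine factors and 0 in the spliceosome and decay lists, and their medians, -0.24, -0.08 and -0.21 as deposited, were then -0.13, 0.04 and -0.07. Without sham mouse 9_9 the serine-arginine list held 10 lower calls and the hnRNP, spliceosome and decay lists 5 each. All tested genes then held 692 lower calls. Without sham mouse 9_11 these lists held 0 lower calls, beside 161 over all tested genes. In the proteasome, which degrades tagged proteins, Psmb5 was higher (0.28) as 1 of 31 genes, with a median of 0.07.

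Lower calls among clock genes depended on the scaling and on single mice. Of 14 circadian clock genes 3 were lower, the repressors Per1 (-0.57) and Per2 (-0.57) and the output factor Tef (-0.41), with a median of -0.33. Over all tested genes 3.28% were called lower. The list held 5 lower calls without sham mouse 8_16 (median -0.42), beside 760 over all tested genes, and 3 without sham mouse 9_9, beside 692. Per1 was at 1.77 to 5.66 TPM in PTE- mice (median 4.28) and at 5.59, 4.82, 4.71, 7.89 and 10.3 TPM in sham mice, with 6 of 9 below all sham mice (limma unadjusted p = 0.0333, exact permutation p = 0.0335). Per1 passed the filter through sham mice only, so its p-values are a description only. Per2 was at 2.67 to 8.45 TPM against 7.51, 7.89, 5.21, 8.46 and 15.4 TPM (exact permutation p = 0.0584), and Tef at 67.7 to 120 TPM against 110, 78.7, 125, 141 and 177 TPM (exact permutation p = 0.047). In all of them sham mouse 9_11 was highest, each call was lost without it and also without sham mouse 9_10, and centring within length bins left 0 of the 14 called and a median of -0.18. Sgk1, a kinase induced by glucocorticoids, was lower (-0.50, exact permutation p = 0.0524) beside Per1 among 12 glucocorticoid response genes (median -0.12). The hour of day of tissue collection is not given in the sources used here. Fn1, fibronectin, was the 1 DEG (-0.54, exact permutation p = 0.0579) of 14 matrix and protease genes, and was called in 3 of 14 fits without 1 mouse.

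Of 6 tested genes that the study names for the ipsilateral side, 0 were DEGs here (median -0.35). Of 10 contralateral genes that the study names for all injured mice against sham, which share these PTE- and sham libraries and so are not independent evidence, 4 were higher here (Ceacam1, Nupr1, Slc35c1 and Rbm46), 2 were lower (Slc47a1 and Prg4) and 4 were not DEGs. The last were Lcn2 and Timp1, described above, Tmem14c and Gm10800. Tmem14c, a mitochondrial protein of haem synthesis, was at 0.97 to 167 TPM in PTE- mice, with 6 above and 3 below every sham mouse, and at 5.12, 2.98, 3.70, 49.3 and 3.70 TPM in sham mice (log2 fold change 1.85 ± 1.08, limma unadjusted p = 0.104, exact permutation p = 0.209). Gm10800 reached 3090 TPM in 1 PTE- mouse and had a median of 5.39 TPM there, against 152, 6.70, 4.90, 478 and 2.96 TPM in sham mice (-0.54 ± 1.55).

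The same mice showed whether these differences were shared by the injured side. For the 9 PTE- and 5 sham mice with libraries of both hemispheres, limma tested whether the PTE- effect was unequal on the 2 sides. The difference passed the thresholds in 240 of 10716 genes without and in 706 (6.59%) with the mouse as a replicate block, and in 0 genes at an adjusted p in either (743 and 241 genes had an unadjusted p under 0.05 with and without the block, and the smallest adjusted p-values were 0.323 and 1). Without sham mouse 9_10 the blocked test called 392 genes and without sham mouse 9_11 it called 991. Of the 397 DEGs, 96 (24.2%) passed the blocked test. The contralateral libraries enter both counts, so a larger share among DEGs follows in part from their choice.

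For Ceacam1, Nupr1 and Hif3a, no difference between hemispheres was detected. Ceacam1 was at 5.44 to 14.4 TPM in the ipsilateral libraries of the 9 PTE- mice (median 7.36) and at 1.23 to 6.08 TPM in those of sham mice (median 3.06), a log2 difference of 1.27 that matched the contralateral value (difference 0.00 ± 0.28, p = 0.995 with the mouse as block in limma). Nupr1 had an ipsilateral log2 difference of 0.55 (difference 0.19 ± 0.17, p = 0.286), and Hif3a, among the lower genes, one of -0.79 (difference -0.41 ± 0.36, p = 0.272). The difference of Hif3a was -0.74 and passed without sham mouse 9_11. Penk had an ipsilateral difference of -0.31 (difference -1.10 ± 0.46, p = 0.0286), which was -0.64 (p = 0.137) without sham mouse 9_10 and was also not called without sham mouse 9_9. Per1 was at -0.59 and Hmox1 at 0.42 on the ipsilateral side.

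For several secreted and transporter genes the sides differed at an unadjusted p, and none passed the correction for the number of genes. They were named for large contralateral differences, which enter the same test. Slc47a1, at -1.83 on the contralateral side, had an ipsilateral log2 difference of 1.42 ± 0.53 (limma, unadjusted p = 0.0155), with 0 to 10.5 TPM in PTE- mice (median 7.01) and 0 to 3.78 TPM in sham mice (median 1.22), a difference between hemispheres of -3.25 ± 0.79 (limma with the mouse as block, p = 0.000704). Without sham mouse 9_10 this difference was -2.21 (p = 0.00092). Slc4a10 was at 0.87 ± 0.39 on the ipsilateral side (p = 0.0376), and its difference of -2.1 (p = 0.00116) was -1.44 (p = 0.00275) without sham mouse 9_10. Ccn3 (difference -2.37, p = 0.000895) was at -2.01 (p = 0.00478) without that mouse, and Igfbp6 (-1.65, p = 0.000805) at -1.27 (p = 0.00381). Their ipsilateral values, 0.85 ± 0.52 for Ccn3 and 0.50 ± 0.49 for Igfbp6, did not pass a test of their own, and neither did those of Prg4 (0.29 ± 0.45) and Slc26a2 (0.21 ± 0.37). The difference of Prg4 (-1.53, p = 0.00839) was -1.05 (p = 0.0398) without sham mouse 9_10, and that of Slc26a2 (-1.33, p = 0.0159) was -0.85 and not called (p = 0.0773). Without this mouse Slc4a10, Prg4 and Slc26a2 were below the filter, as was Prg4 without sham mouse 8_16. The p-values of Slc4a10, Prg4 and Slc26a2 for the difference are thus a description only. Slc47a1 passed the filter through contralateral sham and ipsilateral PTE- mice only, and high values in these groups make the difference negative. Its p-values for the ipsilateral side and for the difference are therefore a description only as well. Of the 46 DEGs named by the rule, 12 of the 30 lower (40.0%) and 2 of the 16 higher ones (12.5%) passed the blocked test. Over all DEGs it was 86 of 346 lower (24.9%) and 10 of 51 higher ones (19.6%). The rule also named Anp32e and Slc47a1 by their p for this difference, so the named shares are not independent of it. Of the 5 genes with the smallest p in the unblocked test, 3 were not contralateral DEGs. Gfap differed by -1.45 ± 0.35, from an ipsilateral log2 difference of 1.33 and a contralateral one of -0.13, the complement gene C4b by -1.32 ± 0.24 (1.10 and -0.23) and the protease gene Bace2 by -2.05 ± 0.43 (1.72 and -0.34). Gfap, the filament gene of reactive gliosis, was at 475 to 1060 TPM in ipsilateral PTE- and 188 to 373 TPM in ipsilateral sham libraries, ranges that did not overlap, while its contralateral ranges did.

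**Figure D5:**
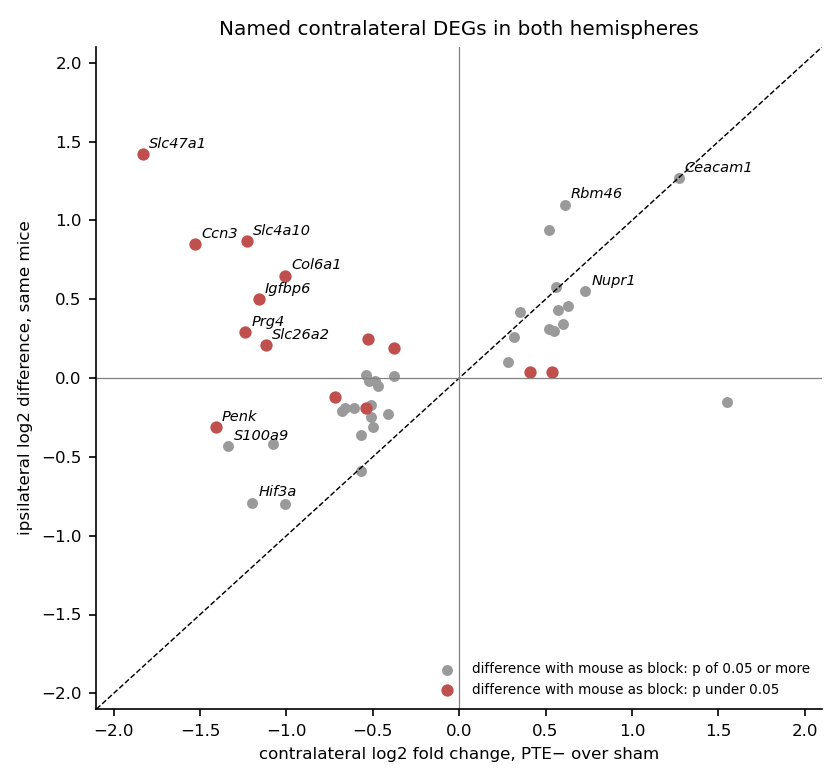
Log2 fold change of PTE- over sham in the contralateral cortex (x axis) against the log2 difference in the ipsilateral cortex of the same mice (y axis) for the 46 named DEGs, with equality as a dashed line and genes past an unadjusted p of 0.05 for the difference, with the mouse as block, in red. Ceacam1 lies on the line at 1.27, while Slc47a1, Ccn3, Slc4a10 and Igfbp6 have values above 0 on the ipsilateral axis and below 0 on the contralateral one, of which those of Ccn3 and Igfbp6 on the ipsilateral side did not pass a test.

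The 4 contralateral PTE+ libraries were not part of the test, and their comparison with sham mice would share the sham libraries. Their values are given beside those above. Ceacam1 was at 10.9 to 33.6 TPM in PTE+ mice (median 20.1), Nupr1 at 57.9 to 197 TPM (136) and Hif3a at 2.71 to 5.22 TPM (3.35). Penk was at 7.48 to 14.3 TPM (10.4), where PTE- mice had a median of 3.61 and sham mice one of 11.7, and Slc47a1 at 1.91 to 12.4 TPM (3.45), where these medians were 0.50 and 1.55. Fitting all 3 contralateral groups with 1 shared spread gave 402 DEGs for PTE- against sham mice.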

How the data were processed

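RNA of ACSA-2-selected cortical astrocytes was measured by SMART-Seq v4 sequencing, a kit not stated to mark strand. The authors trimmed reads with Trim Galore 0.6.4, aligned them with Bowtie2 2.4.1 and quantified genes with RSEM 1.2.28, per the methods and the submitters' processing notes, and deposited TPM values, which were used as they stand. The annotation release is not given in the sources used here. The values are no counts, so limma 3.58.1 (R 4.3.3, with a trend) was used on log2(TPM + 1), which understates changes of low genes. The filter was a group mean above 5 TPM, and DEGs were called at p below 0.05 (unadjusted) with a 1.2-fold difference or more. The TPM values keep no depth, so no counting interval is given. Gene symbols were matched for 21856 of 21975 identifiers.

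Each library is a separate mouse, grouped by its treatment label. Single genes were also tested by two-sided exact permutation of mean log2(TPM + 1) (Python 3.11.15, numpy 2.4.6). The model was tested on simulated data. Same-numbered libraries of the hemispheres come from the same mouse. Deviations from the group means correlated with a median of 0.507 over 14 same-mouse pairs (0.0157 to 0.695) and -0.089 over 92 other pairs, so the mouse was used as a block beside the unblocked fit. Genes were named as the 12 DEGs with the largest change each way, the 10 with the smallest p, the 5 with the smallest p for the hemisphere difference, the 10 contralateral genes of the study, and of each of 41 gene lists the DEGs or else the tested member with the largest change. Others are named as chosen after their values were seen. The comparison, the gene lists and the tests were chosen with earlier results of these data known. Alternatives were pseudocount 0.1, filters, scalings, array weights, a fold of 1.5, the name prefix as covariate, a fit of all 3 groups and leaving out each mouse, for single genes with the tested set held fixed. Promoter sequences came from RefSeq (GRCm38.p6), where 5 of the 9 genes looked up had an entry.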

Additional observations from a re-analysis of the deposited data

Results flagged for a closer look

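In 5 of 156 groups of named-gene values 1 mouse stood apart from the rest by Dixon's criterion, which chance alone flags in about 1 in 20 groups. Among sham mice, Ahcy was at 7.2 TPM in mouse 8_16, Rcan2 at 15.6 TPM in mouse 8_16, Cyc1 at 430 TPM in mouse 9_10 and Tmem14c at 49.3 TPM in mouse 9_10. Among PTE- mice, C4b was at 65.8 TPM in mouse 9_13.

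The 5 genes with the smallest unadjusted p for a difference between hemispheres in the effect of PTE- against sham were flagged. They came from an interaction in limma that did not use the mouse as a block, although both hemispheres were from the same mice. The contralateral minus the ipsilateral log2 difference was -2.05 for Bace2, -1.32 for C4b, -0.57 for Anp32e, -1.45 for Gfap and -3.25 for Slc47a1. None of them passed the correction for all 10716 genes.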

How the results depend on the processing

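The total of 397 DEGs became 677 without a filter on low values and 88 at a fold of 1.5, and ranged from 224 to 861 when 1 mouse was left out. The 51 higher DEGs became 328 after median centring, 217 after quantile normalization, 254 after length-bin centring and 6 at a fold of 1.5, and ranged from 38 to 87 with 1 mouse left out. The 346 lower DEGs became 607 without a filter, 119, 127 and 106 under these scalings, and 82 at a fold of 1.5, and ranged from 154 to 774. The 240 genes whose effect differed between hemispheres became 706 with the mouse as a replicate block, 632 with the replicate block and length-bin centring, and 393 with a filter of 1 TPM, and ranged from 110 (without sham mouse 9_10) to 362 (without PTE- mouse 9_12). No block was possible in the contralateral test, where each mouse gives 1 library. Within the contralateral comparison the total stayed within 1.5 times the main count with a pseudocount of 0.1 (389), array weights (423), a filter of 1 TPM (554), the name prefix as covariate (445), the fit of all 3 groups (402) and no fold threshold (414). Of the 46 named DEGs, 46 were still called with the prefix as covariate, 34 after median centring, 33 after quantile normalization, 32 after length-bin centring, 27 without sham mouse 9_10 and 29 without sham mouse 8_16. Within a prefix of the mouse name the sign turned in 12 of the 32 named genes that were not DEGs and in 0 of the 46 DEGs. The DEGs were chosen by their difference over these same libraries, so their steady signs follow in part from that choice. Under the other alternatives the sign turned in 5 named genes, none of them a DEG. With 1 mouse left out, Aqp1 ranged from -1.19 to 0.27 (without sham mouse 9_9), Cxcl10 from -0.6 to 0.08 (without sham mouse 9_10), Gfap from -0.33 to 0.03 (without PTE- mouse 9_12, with 0.0 and 0.01 without sham mice 8_15 and 9_9) and Gm10800 from -1.46 to 0.51 (without sham mouse 9_10, with 0.1 without sham mouse 8_15), and Slc7a11 was at 0.03 after length-bin centring. The cause of these shifts was not tested. TPM give no depth, so how far counting error limits low genes such as Slc47a1 and Slc4a10 is unknown, and 5 sham mice limit every comparison.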
